A study of Mus musculus with 6 samples.

Results

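The 10 genes described here encode receptors through which circulating hormones reach the growth plate: the estrogen receptors Esr1 and Esr2, the glucocorticoid receptor Nr3c1, the vitamin D receptor Vdr, the thyroid hormone receptors Thra and Thrb, the retinoic acid receptors Rara, Rarb and Rarg, and the growth hormone receptor Ghr. They were taken by gene name from the 46078 genes of the count tables, and all 10 were present. Growth plates of the distal femur and proximal tibia were dissected from mouse embryos at E18.5, and their RNA was sequenced in bulk as 3 control and 3 mutant libraries. Neither the sample titles nor the study's methods for bulk RNA say whether each library came from 1 animal. Controls carried 1 targeted Idh1 allele behind a lox-stop-lox cassette (Idh1 LSL/+) without Cre, and mutants carried the same allele together with Col2a1-Cre, which removes the stop in cells that express or have expressed type II collagen and so switches on mutant Idh1. Controls were littermates, no control carried Cre alone, and the Cre transgene and the mutant enzyme therefore cannot be told apart. The text on animal care in the labels gives an age of months in place of E18.5. The comparison asked whether receptor levels differed between growth plates with and without the mutant enzyme.

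Of the 10 receptors, Esr1 was higher in the mutants, by 2.53-fold, and was the only receptor past the threshold of an adjusted p under 0.05 in edgeR. Vdr had a fold change of nearly the same size, 2.49-fold, but its libraries overlapped between the groups and it did not pass the test. Ghr, Nr3c1, Thra, Rara, Rarb and Rarg had fitted log2 fold changes between -0.24 and 0.11. Thrb was low, with a fitted log2 fold change of -0.51, and Esr2 had too few counts to be tested. Of the 9 receptors tested 1 was called higher and 0 lower, beside 0.0535% and 0.137% of all genes tested. An unadjusted p under 0.05 was reached by 2 receptors, Esr1 and Vdr, both higher, beside 3.71% of all genes for higher and 4.93% for lower values. The groups did not overlap in 1 receptor, Esr1, beside 6.85% of all genes with higher and 7.58% with lower mutants.

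Apart from Ghr, the receptors belong to the nuclear receptor family. A nuclear receptor binds DNA as a transcription factor, and its hormone, a small lipid-soluble molecule, switches it between repressing and activating complexes. Estrogen receptors and the glucocorticoid receptor bind mainly as pairs of like molecules to inverted repeats, whereas the vitamin D, thyroid hormone and retinoic acid receptors pair with retinoid X receptors on direct repeats that differ in their spacing. Ghr is a cytokine receptor of the cell surface that signals through Jak2 and Stat5 and raises Igf1. In the growth plate, growth hormone and thyroid hormone promote longitudinal growth, glucocorticoids in excess slow it, vitamin D signalling acts on mineral supply and on the hypertrophic zone, unliganded retinoic acid receptors favour cartilage matrix production, and estrogen acts through ESR1 to close the growth plate at the end of puberty.

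The response elements of these receptors are short, and a few promoters of the genes measured here hold a match to them. Promoter windows of 300 bases (250 before and 50 after an annotated start) were taken from RefSeq on GRCm38.p6, the build of the count tables, and 8 of the 10 receptors and 102 of 132 companion genes of their pathways had a window. The direct repeat with a spacer of 5 bases, the type bound by retinoic acid receptors, was searched on both strands as any pair of arms NGNTCA with A or G in the first and G or T in the third place, and it was present in 32 of 32851 windows (0.0974%). Among receptors and companion genes it was present in the window of Rarb itself, at chr14:16575501-16575541 on the minus strand, and in that of Cyp26a1, which breaks retinoic acid down, at chr19:37697764-37697804 on the plus strand. The palindrome of the glucocorticoid receptor, searched as GNACA followed after 3 bases by the arm TGTNC, was present in 156 windows (0.475%), among them those of Sgk1, a kinase of salt balance, at chr10:21993690-21993726, and of Mt1, a metallothionein, at chr8:94178983-94179019, both on the plus strand. The sequences below show these 4 matches with 12 bases on either side, the arms of each element in capitals, because the levels of these 4 genes are described with their receptors.
Rarb: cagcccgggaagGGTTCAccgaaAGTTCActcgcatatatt
Cyp26a1: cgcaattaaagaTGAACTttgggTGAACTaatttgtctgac
Sgk1: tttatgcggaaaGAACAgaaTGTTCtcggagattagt
Mt1: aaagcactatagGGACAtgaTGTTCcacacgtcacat

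The matches lay 53 to 37 bases before the start for Rarb, 32 to 16 bases for Cyp26a1, 188 to 176 bases for Sgk1 and 94 to 82 bases for Mt1, and none overlapped another motif searched. Repeats of the same arms with a spacer of 3 bases, the vitamin D receptor type (13 windows, 0.0396%), or of 4 bases, the thyroid hormone receptor type (27 windows, 0.0822%), were in no window of a receptor or companion gene, nor was the estrogen receptor palindrome, GGTCA followed after 3 bases by the arm TGACC (23 windows, 0.0700%). These are matches of letters within a short window, and binding was not measured.

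Because Esr1 was the receptor that changed, the 250 bases before each of its 2 RefSeq starts are shown. The first, at chr10:4611739-4611988 on the plus strand, had 47.6% G and C and 4 CpG, and the second, at chr10:4709908-4710157 on the same strand, had 59.6% and 7 CpG. Neither held the single estrogen element arm GGTCA on either strand, which 35.2% of all windows hold in the bases before the start. The counts are summed over the exons of a gene and do not show which start was used.
Esr1 first start: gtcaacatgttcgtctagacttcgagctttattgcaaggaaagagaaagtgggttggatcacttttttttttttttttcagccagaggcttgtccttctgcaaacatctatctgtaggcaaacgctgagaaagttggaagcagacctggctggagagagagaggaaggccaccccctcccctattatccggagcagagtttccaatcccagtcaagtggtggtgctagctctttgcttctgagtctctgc
Esr1 second start: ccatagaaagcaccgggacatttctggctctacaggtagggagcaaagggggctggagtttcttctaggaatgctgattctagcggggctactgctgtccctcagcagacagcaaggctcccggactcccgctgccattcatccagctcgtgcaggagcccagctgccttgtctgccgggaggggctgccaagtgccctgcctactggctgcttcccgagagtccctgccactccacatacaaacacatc

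The libraries held 23445687 to 30415773 counts assigned to genes, so that 3 counts correspond to 0.0978 to 0.127 CPM (counts per 1000000 counts of the scaled library). Idh1 itself was at 37.2, 39.1 and 65.3 CPM in the controls and at 47.5, 47.7 and 56.3 CPM in the mutants (log2 fold change 0.10, adjusted p = 0.940), and gene counts do not separate its mutant from its wild-type transcripts. Mutant 3 stood apart in sex-linked genes, with 26356 Xist counts against 0 to 13 in the other 5 libraries and 0 counts over 4 Y-linked genes against 3871 to 5449. By these counts mutant 3 was female and the other 5 libraries were male, so sex was not balanced between the groups. The 13 cartilage markers were all detected, with summed levels of 5166 to 9170 CPM in controls and 7136 to 9613 CPM in mutants. The pieces also held RNA of neighbouring tissues, with 33950 to 48070 CPM over 10 bone markers and 14420 to 22519 CPM over 9 muscle markers across the 6 libraries. Most of the bone sum was Col1a1, at 33163 to 47730 CPM. Such sums depend on the genes listed and do not give the proportions of the tissues. Across the genome 32 of 16813 genes tested passed an adjusted p of 0.05 in edgeR (0.190%), 9 of them higher (0.0535%) and 23 lower (0.137%) in the mutants.

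Esr1 (ENSMUSG00000019768, chr10:4611593-5005614, plus strand), the nuclear receptor that mediates most estrogen responses in bone and cartilage, was at 6.14, 8.34 and 5.45 CPM in the controls and at 17.7, 16.6 and 16.4 CPM in the mutants. These levels came from 173, 256 and 151 counts against 417, 408 and 476 counts. All 3 mutants lay above all 3 controls, and the mutants lay closer together than the controls. The means were 6.64 ± 1.51 CPM (SD, n = 3) and 16.9 ± 0.688 CPM (SD, n = 3), a log2 fold change of 1.34 ± 0.16 (SE) or 2.53-fold (95% interval 1.98 to 3.23), with an adjusted p of 0.0237 in edgeR's quasi-likelihood test. By unadjusted p it ranked 6 of the 16813 genes tested. In these bulk samples more cells with the transcript and more transcript per cell cannot be told apart.

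**Figure D1:**
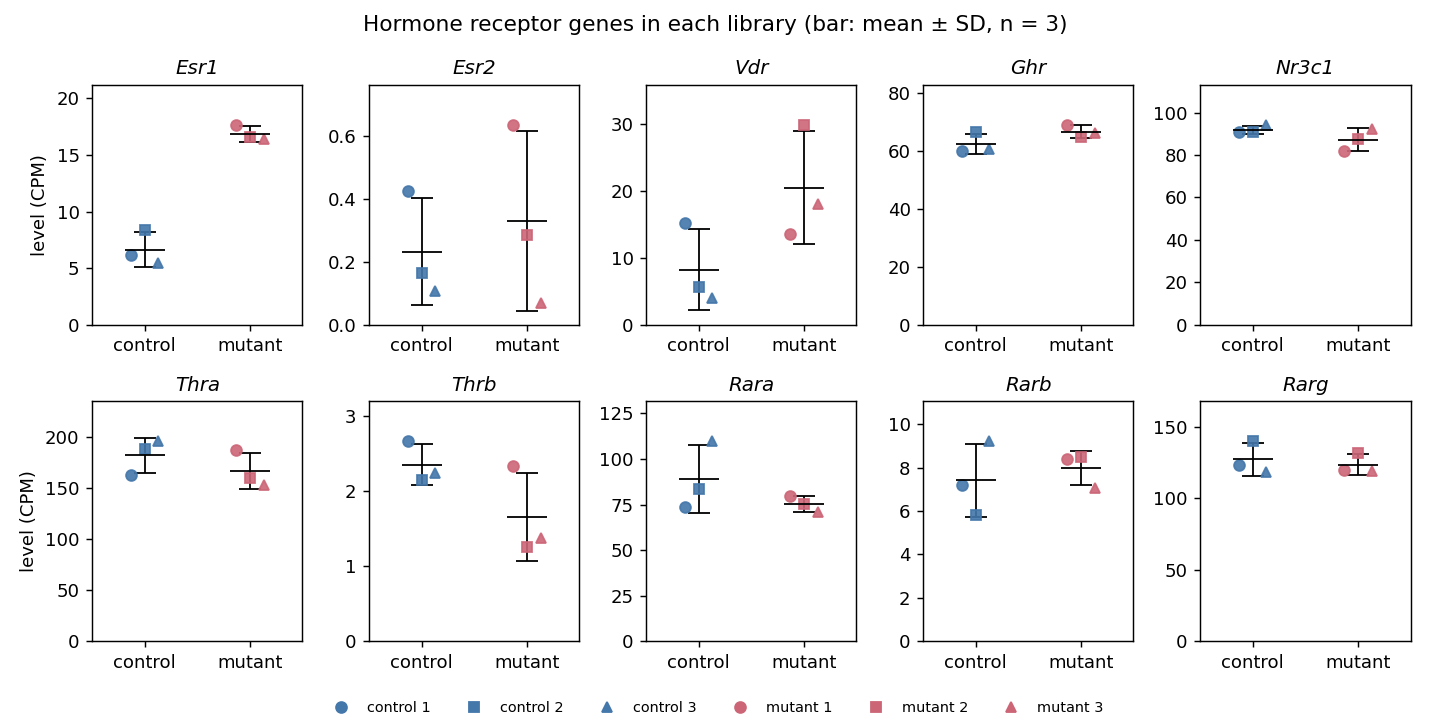
Level of each of the 10 receptors in CPM, 1 panel per gene with its own linear axis from 0, with 1 point per library (controls blue, mutants red, marker shape by replicate number) and black bars for the group mean ± SD (n = 3). The 3 mutants sit between 16.4 and 17.7 CPM for Esr1, above all controls, whereas the groups overlap for Vdr and the other receptors.

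The increase of Esr1 had the same direction in every fit, with log2 fold changes of 1.22 to 1.54 when 1 library was left out. With 5 libraries its adjusted p was 0.0141 to 0.0818, below the threshold without control 2 or control 3 and above it without control 1 (0.0636), mutant 1 (0.0776), mutant 2 (0.0818) or mutant 3 (0.0706). With the counts of Y-linked genes as a covariate, which takes up mutant 3, the adjusted p was 0.0616. Marker lists of 3 other tissues had lower sums in all mutants than in any control. The 6 tendon markers summed to 3204 to 3438 CPM in controls and 2108 to 2470 CPM in mutants, with 5 genes lower without overlap, of which Tnmd was called, while Thbs4 overlapped. The 9 blood markers summed to 559 to 1547 against 296 to 452 CPM, with 6 erythroid genes lower without overlap and 0 called, while the leukocyte genes Ptprc, Cd79a and S100a8 overlapped and had positive log2 fold changes (0.58, 0.88 and 1.14). The 5 skin markers summed to 10.2 to 20.2 against 9.09 to 9.91 CPM. The only one called was the basal keratin Krt5, at 2.94, 7.89 and 5.52 CPM in controls and 0.339, 0 and 0.379 CPM in mutants (adjusted p = 0.0355). The other skin genes tested, Krt1, Krt10 and Trp63, overlapped between the groups, and Krt14 had too few counts to be tested. Endothelial markers were at 803 to 838 CPM in controls and 819 to 916 CPM in mutants. Macrophage markers were at 347 to 357 and 337 to 457 CPM, and each of these 2 lists had 2 of 6 genes higher without overlap. Over all genes tested, 6.85% were higher and 7.58% lower in the mutants without overlap. No marker of these lists was at 0 in all libraries, and their part in the Esr1 difference was not tested.

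Esr2 (ENSMUSG00000021055, chr12:76120419-76177259, minus strand), the other nuclear estrogen receptor, was near the limit of detection in both groups. Its counts were 12, 5 and 3 among controls and 15, 7 and 2 among mutants, which is 0.0688 to 0.635 CPM over the 6 libraries. The groups overlapped and the gene stayed below the low-count filter. Without that filter its log2 fold change was 0.46 with a 95% interval of -0.96 to 1.87 (adjusted p = 0.891, edgeR), so that a difference in either direction was not detectable at this depth. Esr1 made up 87.7 ± 8.41% of the estrogen receptor level per kb of exon in controls and 93.0 ± 5.54% in mutants (exact two-sided permutation test, p = 0.4, n = 3 each, smallest possible p 0.1).

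The tested genes listed for estrogen supply and response gave no call. Hsd17b1, which converts estrone to estradiol, stayed below the low-count filter and is described in the closing observations. None of the 10 tested genes of the estrogen list (16 listed) was called in edgeR. An unadjusted p under 0.05 was reached by 1 gene, higher in the mutants (10%), beside 3.71% of all genes. DESeq2 and limma-voom, which called 1.15% and 0.113% of all genes, called none. The median log2 fold change of the list was 0.05, beside -0.00259 over all genes. Igfbp4, an insulin-like growth factor binding protein, was at 746 ± 63.2 and 703 ± 51.5 CPM (n = 3 each), and Ctsd, the lysosomal protease cathepsin D, was at 359 ± 39.4 and 367 ± 10.7 CPM. Hsd17b4, a peroxisomal enzyme that can oxidise estradiol, was at 45.9 to 50.4 CPM in controls and 51.6 to 55.1 CPM in mutants, without overlap, with a log2 fold change of 0.18 (adjusted p = 0.555). Esrrg, an orphan receptor related to the estrogen receptors, had a log2 fold change of 0.32 (adjusted p = 0.794). Greb1, an estrogen-induced gene, was at 1.35 and 1.47 CPM on average (adjusted p = 0.953).

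The tested genes whose profile over the 6 libraries was most like that of Esr1, by root mean square distance between centred log2 CPM values among 8136 genes within 4 times its mean level, were Muc1 (distance 0.228), a membrane mucin, Serpina3n (0.232), a secreted protease inhibitor, and Car11 (0.267), a carbonic anhydrase-related protein. Their own log2 fold changes were 0.89 for Muc1 (adjusted p = 0.114), 1.05 for Serpina3n (adjusted p = 0.291) and 0.93 for Car11 (adjusted p = 0.265). None of the 3 was called in edgeR, while DESeq2 called all 3, beside 1.15% of all genes. The 3 genes were picked for their likeness to Esr1, so their direction follows from that choice and the calls add no support.

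**Figure D2:**
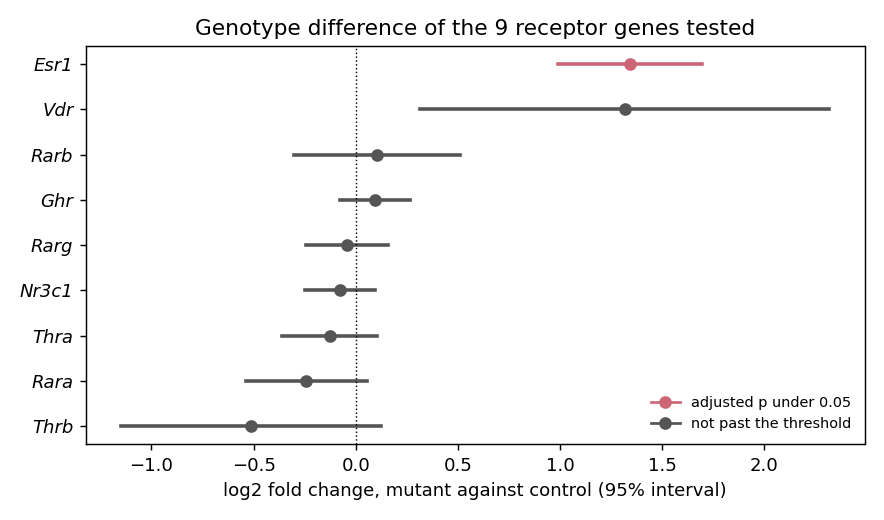
Log2 fold change of each of the 9 tested receptors, mutant against control, with its 95% interval from the edgeR fit (n = 3 each), a dotted line at 0 and red for an adjusted p under 0.05. The intervals of Esr1 (0.99 to 1.69) and Vdr (0.31 to 2.32) lie above 0, that of Vdr is the widest, and the other 7 intervals include 0.

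Vdr (ENSMUSG00000022479, chr15:97854425-97910630, minus strand), the receptor of the active form of vitamin D, was at 15.2, 5.57 and 3.93 CPM in the controls and at 13.5, 29.9 and 18.0 CPM in the mutants. Control 1 was above mutant 1, so the groups overlapped, and controls 2 and 3 were the lowest of all 6 libraries. The log2 fold change was 1.32 ± 0.45 (SE), or 2.49-fold (95% interval 1.24 to 4.98), with an unadjusted p of 0.0153 and an adjusted p of 0.444 in edgeR. Without control 1 the log2 fold change was 2.10 (adjusted p = 0.0864), and without mutant 2 it was 0.94. Without the low-count filter the adjusted p was 0.00120, the only one of 8 other settings in which Vdr passed.

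Some markers of mature bone varied between libraries in much the same way as Vdr, and others did not. Dmp1, a matrix protein of osteocytes, was at 82.8, 21.3 and 6.75 CPM in the controls and at 84.4, 198 and 90.7 CPM in the mutants. Ibsp, a sialoprotein of mineralizing matrix, was at 973, 332 and 120 CPM in the controls and at 1141, 1474 and 951 CPM in the mutants. Of the 10 bone markers, mutant 2 was the highest library in 9, and controls 2 and 3 were the lowest pair in 5, namely Ibsp, Dmp1, Ifitm5, Phex and Sost. In the other 5 they were not: Col1a1 was highest in control 3, Bglap and Bglap2 were lowest in mutant 1, Alpl was lowest in control 2, and Sp7 in control 3 followed by mutant 3. Sost, an osteocyte inhibitor of bone formation, ranked the 6 libraries in the same order as Vdr. The summed bone markers did not separate the groups, at 33950 to 48070 CPM in controls and 39342 to 41210 CPM in mutants. That sum was almost all Col1a1, at 33163 to 47730 CPM over the 6 libraries, so it says little about the other bone markers. Every bone marker had a positive log2 fold change, from 0.01 for Col1a1 to 1.75 for Dmp1. None was called (adjusted p = 0.522 for Dmp1 and 0.557 for Ibsp, edgeR). Only Dmp1 was higher in the mutants without overlap, as were 6.85% of all genes tested. The 7 osteoclast markers summed to 242 to 526 CPM in controls and 202 to 465 CPM in mutants, with mutant 2 highest in 3 of them. The part of bone in the Vdr difference was not tested.

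**Figure D3:**
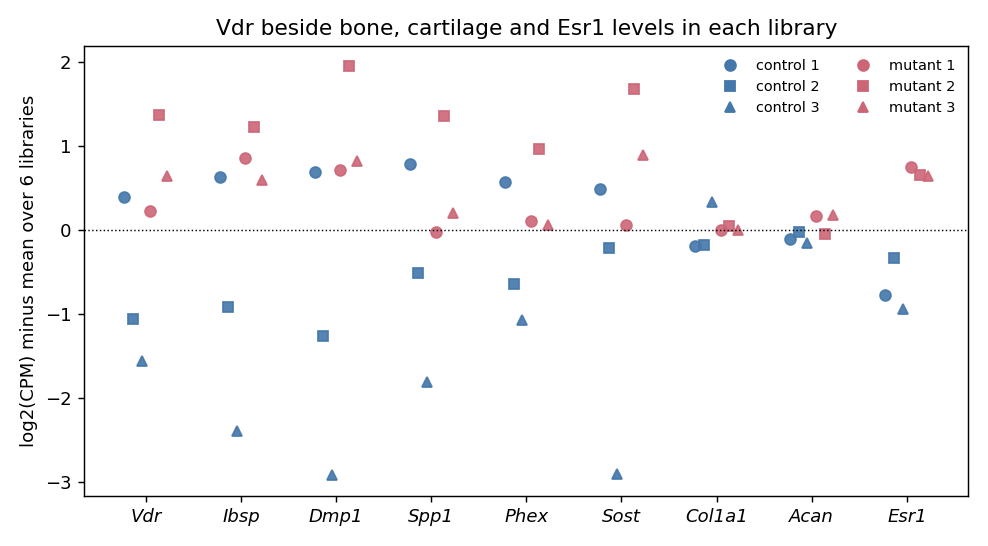
Log2 CPM of Vdr, of bone genes (Ibsp, Dmp1, Spp1, Phex, Sost, Col1a1), of the cartilage gene Acan and of Esr1 in each library, less the mean of each gene over the 6 libraries, with controls in blue, mutants in red and marker shape by replicate number. Control 3 is lowest and mutant 2 highest for Vdr, Ibsp, Dmp1, Spp1, Phex and Sost. Dmp1 and Esr1 separate the groups, and Acan and Col1a1 vary little.

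The other genes of vitamin D metabolism and response gave no call. Of 15 listed genes 10 were tested, 0 were called and 0 had an unadjusted p under 0.05 in edgeR, with a median log2 fold change of 0.17, and DESeq2 and limma-voom called 0. Spp1, which encodes osteopontin and is induced by vitamin D in bone cells, was at 287, 116 and 47.2 CPM in the controls and at 164, 424 and 190 CPM in the mutants. As for Vdr, control 3 was lowest and mutant 2 highest, and the groups overlapped (log2 fold change 0.79, adjusted p = 0.768). Pdia3, a disulfide isomerase also described as a membrane binder of vitamin D, was at 659 ± 92.4 and 741 ± 80.1 CPM (n = 3 each). Cubn, an uptake receptor for the vitamin D carrier, was low, at 1.19 to 1.45 CPM in controls and 0.933 to 1.10 CPM in mutants, without overlap (log2 fold change -0.40, adjusted p = 0.753). Cyp24a1, the enzyme that inactivates vitamin D and the most responsive target of its receptor in many tissues, had 0 counts in all 6 libraries, which allows up to 0.0978 to 0.127 CPM.

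Nr3c1 (ENSMUSG00000024431, chr18:39410545-39491301, minus strand), the glucocorticoid receptor, was at 91.1, 90.8 and 94.2 CPM in the controls and at 81.8, 87.7 and 92.3 CPM in the mutants. The groups overlapped, and the log2 fold change of -0.08 had a 95% interval of -0.25 to 0.09 (adjusted p = 0.856, edgeR). Of the 19 tested genes of glucocorticoid supply, receptor chaperoning and response, 0 were called in edgeR. An unadjusted p under 0.05 was reached by 2 higher and 3 lower genes (10.5% and 15.8%), beside 3.71% and 4.93% of all genes. In 4 genes of the list (21.1%) the groups did not overlap, beside 14.4% of all genes. DESeq2 called 2, Sgk1 and Hsd11b1, and limma-voom 0, beside 1.15% and 0.113% of all genes. The median log2 fold change was 0.03.

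The glucocorticoid genes with the lowest p-values went in different directions. Sgk1, whose promoter palindrome is printed above, was at 54.6, 52.0 and 42.4 CPM in the controls and at 74.3, 69.9 and 65.0 CPM in the mutants. Every mutant lay above every control, with a log2 fold change of 0.49 ± 0.11 (SE) and an adjusted p of 0.148. Hsd11b1, which regenerates active glucocorticoid inside cells, was at 7.42, 7.69 and 7.72 CPM in the controls and at 4.66, 5.07 and 3.55 CPM in the mutants, again without overlap (log2 fold change -0.79 ± 0.17, adjusted p = 0.147). Hsd11b2, the enzyme of the opposite reaction, was at 3.49 to 4.33 CPM in controls and 2.84 to 3.06 CPM in mutants (log2 fold change -0.43, adjusted p = 0.555). Tsc22d3, a leucine zipper protein induced by glucocorticoids, was at 107 to 114 CPM in controls and 84.5 to 102 CPM in mutants (log2 fold change -0.26, adjusted p = 0.437). Mt1, the other gene with the palindrome, was at 11.03 to 25.7 CPM in controls and 21.0 to 26.5 CPM in mutants, with overlap (adjusted p = 0.734). The chaperones Hsp90ab1 and Stip1, which hold the receptor ready for its hormone, were at 1506 ± 165 and 1535 ± 54.7 CPM and at 118 ± 15.05 and 130 ± 15.4 CPM in controls and mutants (n = 3 each).

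Thra (ENSMUSG00000058756, chr11:98740638-98769006, plus strand), the main thyroid hormone receptor of the skeleton, was at 163, 188 and 196 CPM in the controls and at 187, 159 and 153 CPM in the mutants. The groups overlapped (log2 fold change -0.13, 95% interval -0.36 to 0.11, adjusted p = 0.808, edgeR). Of its 4614 exon bases, 263 (5.70%) are shared with Nr1d1 on the opposite strand, and reads there were not assigned because counting ignored strand. The exons of the other 9 receptors overlap no other gene.

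Thrb (ENSMUSG00000021779, chr14:17660960-18038088, plus strand), which prevails in pituitary and liver, was covered by 75, 66 and 62 counts among controls and by 55, 31 and 40 among mutants. Its levels were 2.66, 2.15 and 2.24 CPM against 2.33, 1.26 and 1.38 CPM, and mutant 1 lay within the control range. The log2 fold change of -0.51 ± 0.28 (SE) had a 95% interval of -1.15 to 0.12 (adjusted p = 0.686). Per kb of exon Thra made up 99.1% of the thyroid hormone receptor level in controls and 99.3% in mutants (exact two-sided permutation test, p = 0.3, n = 3 each). The counts are summed per gene and do not separate the transcript forms of Thra or Thrb.

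Among genes of thyroid hormone transport, activation and response, 13 of 15 were tested and 0 were called in edgeR. Their median log2 fold change was -0.05, and 1 gene, lower in the mutants, had an unadjusted p under 0.05. That is 7.69% of those tested, beside 4.93% of all genes. In 3 genes of the list (23.1%) the groups did not overlap, beside 14.4% of all genes. Hr, a corepressor that is itself induced by thyroid hormone, had a log2 fold change of 0.46 (adjusted p = 0.626). The deiodinases, which activate or inactivate the hormone, were low. Dio2 was at 2.10 to 5.11 CPM over the 6 libraries, with overlap between the groups. Dio3 was at 1.08 to 1.53 CPM in controls and 0.762 to 1.03 CPM in mutants, without overlap (log2 fold change -0.44, adjusted p = 0.750, edgeR).

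The retinoic acid receptors did not differ between the groups beyond the spread of the replicates. Rarg (ENSMUSG00000001288, chr15:102234938-102257517, minus strand), the prevailing form in cartilage, was at 123, 140 and 118 CPM in the controls and at 119, 132 and 119 CPM in the mutants (log2 fold change -0.04, 95% interval -0.24 to 0.16, adjusted p = 0.948, edgeR). Rara (ENSMUSG00000037992, chr11:98927818-98974942, plus strand), which is expressed in most tissues, was at 73.8, 83.5 and 110 CPM in the controls and at 79.6, 75.2 and 70.9 CPM in the mutants. Control 3 was its highest library, and the log2 fold change of -0.24 ± 0.13 (SE) had a 95% interval of -0.54 to 0.06 (adjusted p = 0.682). Rarb (ENSMUSG00000017491, chr14:16430842-16575472, minus strand), itself a known target of retinoic acid, whose promoter repeat is printed above, was at 7.20, 5.83 and 9.20 CPM in the controls and at 8.38, 8.48 and 7.06 CPM in the mutants (log2 fold change 0.11, 95% interval -0.30 to 0.51, adjusted p = 0.931). The fitted signs of Rarb and Rarg turned when control 2 was left out.

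Within the family, per kb of exon, Rarg made up 57.7 ± 6.27% of the summed level in controls and 60.2 ± 1.85% in mutants (n = 3 each). Rara made up 37.7% and 34.6%, and Rarb 4.55% and 5.26%. The exact two-sided permutation p-values of these shares were 0.9 for Rarg, 0.5 for Rara and 0.2 for Rarb.

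The genes that supply, carry and break down retinoic acid had a lower median than all genes tested. Of 16 listed genes 14 were tested, and 0 were called in edgeR or limma-voom, whereas DESeq2 called Stra6, Rbp4 and Aldh1a1, each lower, among others. Their median log2 fold change was -0.38, beside -0.00259 over all genes, with 9 negative and 5 positive values. The groups did not overlap in 6 genes that were lower and 1 that was higher in the mutants, 50% of the list against 14.4% of all genes tested. An unadjusted p under 0.05 was reached by 8 lower genes and 1 higher gene, where 8.64% of all genes reached it. The members were chosen with results of these data known, so these shares describe the list and were given no test.

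Among the genes of uptake and transport was the most negative difference of the list. Stra6, the membrane receptor for the retinol carrier, was at 7.81, 9.03 and 7.58 CPM in the controls and at 4.32, 2.03 and 1.03 CPM in the mutants. Its mutants differed among themselves by more than its controls did, and all lay below them (log2 fold change -1.75 ± 0.39, adjusted p = 0.160). With 1 library left out the log2 fold change ran from -2.42 without mutant 1, the only such fit that passed (adjusted p = 0.0469), to -1.36 without mutant 3, and the adjusted p reached 0.575. Rbp4, that carrier, was at 31.4, 31.6 and 25.2 CPM in the controls and at 18.8, 18.3 and 15.6 CPM in the mutants. With a log2 fold change of -0.75 ± 0.12 it missed the threshold (adjusted p = 0.0565) and passed it in 1 of 6 fits with 1 library left out, that without control 3 (adjusted p = 0.0409, range 0.0409 to 0.244), and in 3 of 8 other settings (up to 0.188).

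Of the enzymes that make retinoic acid from retinal, Aldh1a1 was at 7.38, 7.01 and 7.002 CPM in the controls and at 3.47, 3.37 and 4.17 CPM in the mutants. The groups were well apart relative to their spread, with a log2 fold change of -0.95 ± 0.16 (SE), and the adjusted p of 0.0591 missed the threshold. Aldh1a3 overlapped between the groups, at 15.6 to 20.8 CPM in controls and 10.7 to 16.98 CPM in mutants (log2 fold change -0.52, adjusted p = 0.460). Aldh1a2 and Rdh10, the latter acting on retinol, had log2 fold changes of -0.22 (adjusted p = 0.596) and 0.01 (adjusted p = 0.988).

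Of the proteins that bind or remove retinoic acid in the cell, Crabp1 was at 33.1, 42.2 and 42.4 CPM in the controls and at 33.6, 25.5 and 24.8 CPM in the mutants (log2 fold change -0.49, adjusted p = 0.324). Fabp5, which carries fatty acids and retinoic acid, was the gene with a positive difference and no overlap, at 82.9 to 88.5 CPM in controls and 89.6 to 104 CPM in mutants (log2 fold change 0.19, adjusted p = 0.563). Cyp26a1, whose promoter repeat is printed above, was at 1.14, 2.25 and 1.01 CPM in the controls and at 0.593, 0.649 and 0.654 CPM in the mutants (log2 fold change -1.21, adjusted p = 0.393). Cyp26b1, the degrading enzyme with the higher level here, was at 43.6 to 50.2 CPM in controls and 34.7 to 43.0 CPM in mutants (log2 fold change -0.28, adjusted p = 0.459). The tendon, blood and skin marker sums given beside Esr1 were lower in the same 3 mutants, and their part in the retinoid differences was not tested.

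**Figure D4:**
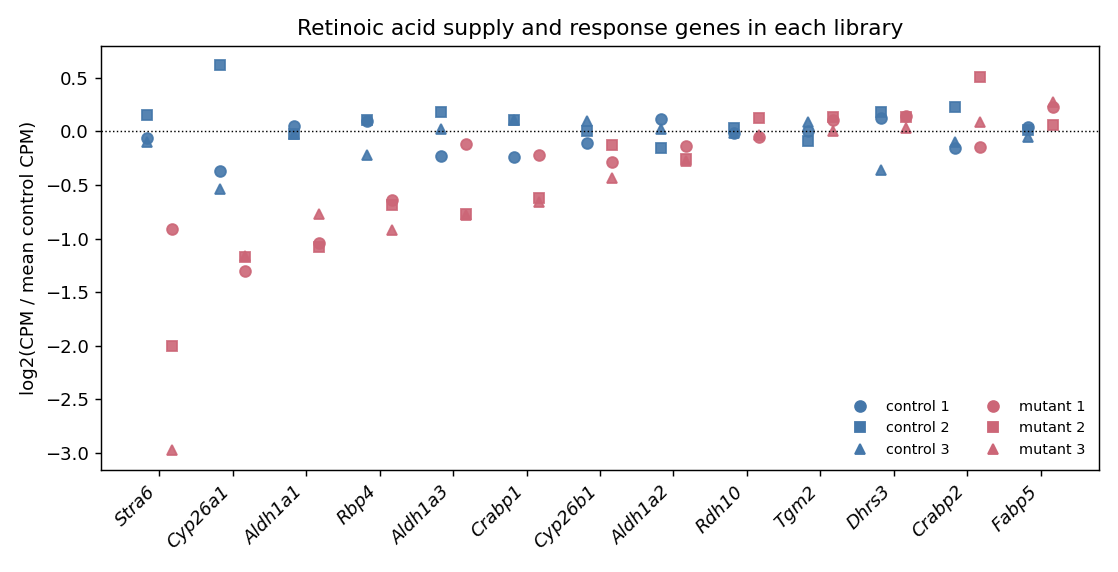
Log2 ratio of the CPM in each library to the mean control CPM for the tested genes of the retinoic acid list that are reported here, ordered by log2 fold change, with 1 point per library (controls blue, mutants red, marker shape by replicate number) and a dotted line at the control mean. All 3 mutants lie below all 3 controls for Stra6, Cyp26a1, Aldh1a1, Rbp4 and Cyp26b1, and above them for Fabp5.

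Ghr (ENSMUSG00000055737, chr15:3317760-3583492, minus strand), the growth hormone receptor, was at 59.8, 66.4 and 60.7 CPM in the controls and at 68.9, 64.6 and 66.2 CPM in the mutants. The groups overlapped, and the log2 fold change of 0.09 had a 95% interval of -0.08 to 0.27 (adjusted p = 0.808, edgeR). All 16 genes listed for the growth hormone axis were tested, 0 were called and 0 had an unadjusted p under 0.05 in edgeR, and the median log2 fold change was 0.04. Igf1, the growth factor that growth hormone induces, was at 451 ± 36.3 and 441 ± 34.6 CPM, and its carrier Igfbp3 at 502 ± 43.1 and 492 ± 51.9 CPM (n = 3 each). Socs2, the feedback inhibitor of Ghr signalling, was at 29.4 to 32.8 CPM in controls and 32.9 to 35.9 CPM in mutants, without overlap (log2 fold change 0.18, adjusted p = 0.626). Ptpn6, a phosphatase that damps cytokine receptors, had a log2 fold change of 0.40 (adjusted p = 0.633).

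The retinoid X receptors, partners of Vdr, the thyroid hormone receptors and the retinoic acid receptors, differed between the groups by less than the spread of the replicates. Rxra was at 135 ± 13.9 and 128 ± 7.75 CPM, Rxrb at 68.0 ± 7.08 and 68.5 ± 3.08 CPM, and Rxrg at 15.1 ± 4.53 and 14.3 ± 2.75 CPM (n = 3 each), with adjusted p-values of 0.887, 0.989 and 0.959. Per kb of exon their shares were 49.8%, 37.1% and 13.1% in controls and 48.7%, 38.4% and 12.9% in mutants (exact two-sided permutation tests, p = 0.6, 0.7 and 0.9). All 17 partners and coregulators listed were tested, 0 were called and 0 had an unadjusted p under 0.05 in edgeR, and their log2 fold changes lay between -0.14 and 0.12. The lowest p-values were those of Ncoa3, a coactivator (0.12, adjusted p = 0.782), and Nrip1, a corepressor of estrogen receptors (-0.11, adjusted p = 0.837). Phb2, a repressor of estrogen receptor activity and a mitochondrial prohibitin, was at 131 ± 9.18 and 131 ± 5.77 CPM.

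Of 25 other hormone receptors 20 were tested and 0 were called in edgeR, with a median log2 fold change of -0.06. Unadjusted p-values under 0.05 were those of 2 genes lower in the mutants (10%), beside 4.93% of all genes. Lepr, the leptin receptor, was at 49.3, 54.8 and 39.4 CPM in the controls and at 30.6, 29.9 and 33.0 CPM in the mutants. Its groups did not overlap (log2 fold change -0.62 ± 0.12, adjusted p = 0.114), and its adjusted p with 1 library left out was 0.0372 (without control 3, the only such fit that passed) to 0.465. In the other settings it was 0.000472 to 0.344, past the threshold in 3 of 8. Npr3, the clearance receptor of natriuretic peptides, had a log2 fold change of -0.51 (adjusted p = 0.360). Igf2r, which takes up Igf2, was at 734 ± 84.5 and 747 ± 15.8 CPM, and Pth1r, the receptor of parathyroid hormone and of its related peptide, at 102 ± 14.3 and 92.9 ± 11.4 CPM (n = 3 each).

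**Figure D5:**
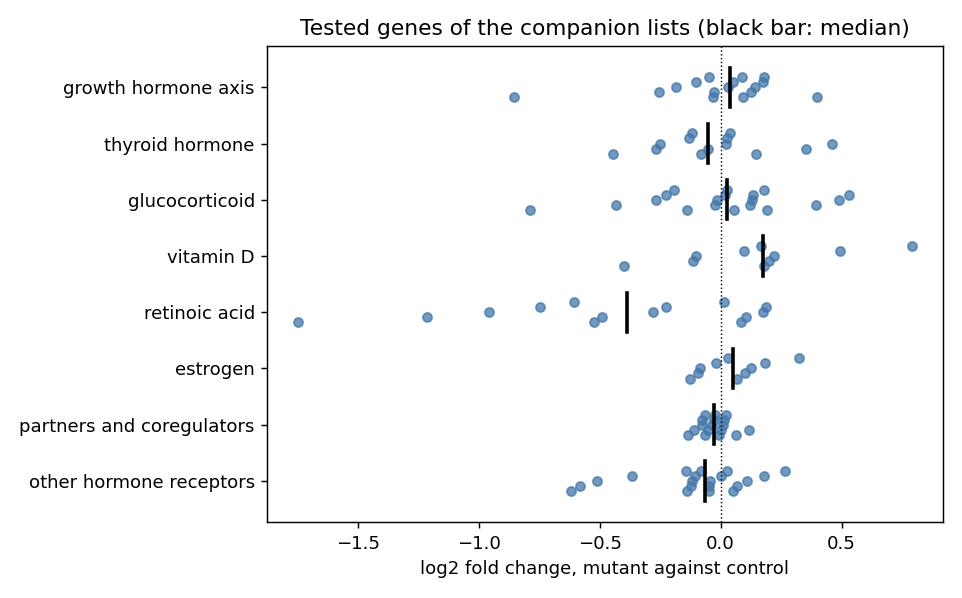
Log2 fold change, mutant against control, of the tested genes of the 8 companion lists, 1 point per gene, with a black bar at the median of each list and a dotted line at 0. The retinoic acid list has the lowest median, -0.38, and the other medians lie between -0.06 and 0.17.

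Over all 8 lists, 113 of 132 companion genes were tested and edgeR called 0 of them, beside 1 of the 9 receptors tested. In the lists 4 higher and 14 lower genes had an unadjusted p under 0.05, which is 3.54% and 12.4% of those tested, beside 3.71% and 4.93% of all genes. DESeq2 called 7 of them and 1.15% of all genes, and limma-voom 0 of them and 0.113% of all genes. The groups did not overlap in 19 companion genes (16.8%) and in 1 receptor (11.1%), beside 14.4% of all genes tested.

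The level per length of exon, in CPM per kb, gave the order of the receptors within the tissue. That length counts all annotated exons of a gene, 13661 bases for Esr1 and 3034 for Rarb. It need not be that of the transcript expressed, so order and shares depend on the annotation. In controls Thra was highest at 39.4 ± 3.72 CPM per kb, followed by Rarg at 30.9 ± 2.74, Rara at 20.4 ± 4.24, Nr3c1 at 12.4 ± 0.254 and Ghr at 6.88 ± 0.393 (n = 3). Below them came Rarb at 2.44 ± 0.559, Vdr at 1.46 ± 1.08, Esr1 at 0.486 ± 0.111, Thrb at 0.358 ± 0.0416 and Esr2 at 0.0690 ± 0.0504 CPM per kb. The control ranges of Rarb and Vdr overlapped, as did those of Esr1 and Thrb, and the other neighbours did not.

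In mutants the same order held except that Vdr, at 3.62 ± 1.495 CPM per kb, came before Rarb, at 2.63 ± 0.262 (n = 3), and these 2 ranges overlapped. Esr1, at 1.23 ± 0.0504 CPM per kb, no longer overlapped Thrb, at 0.252 ± 0.0895. Among the 16813 genes tested, Esr1 ranked 14410 by mean CPM per kb in controls and 12410 in mutants, while Thra ranked 1113 and 1235. Esr1 thus stayed a low transcript, at 0.424 ± 0.0944% of the summed level per kb of the 10 receptors in controls and 1.12 ± 0.0352% in mutants (exact two-sided permutation test, p = 0.1, the smallest that 3 against 3 allow). The share of Ghr also separated the groups, at 5.59 to 6.25% in controls and 6.35 to 6.95% in mutants, with the same p of 0.1 in the exact test. The summed level itself was 115 ± 6.82 and 110 ± 4.52 CPM per kb (p = 0.4, same exact test).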

How the data were processed

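Growth plate RNA of 3 control and 3 mutant libraries, grouped by the sample labels, was analysed. Per the labels and the study's methods, the authors made the libraries with a poly(A) stranded kit, trimmed reads with Trim Galore 0.6.4, mapped them to GRCm38 with STAR 2.6.1d and counted them per gene over exons with featureCounts 1.6.4, ignoring strand. The deposited values are raw counts of 46078 genes. The labels give no litter, so the litter term of the study's model was not used.

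From these counts, edgeR 4.0.16 (R 4.3.3) with filterByExpr (minimum count 10, minimum total 15), TMM factors and the quasi-likelihood test compared mutants with controls over 16813 genes, with Benjamini-Hochberg adjustment and a threshold of 0.05. The common dispersion was 0.0173. CPM use TMM-scaled library sizes, and CPM per kb divide by exon length. Single shares were compared by exact two-sided permutation. The p-values of the fits weigh the difference between the groups against the spread between libraries within a group. Alternatives were DESeq2 1.42.0, limma-voom (limma 3.58.1), upper-quartile factors, 2 other filters, a Y-linked covariate, the replicate number as a block and each library left out. The functions were tested on simulated data. No library repeated another, since chi-square values between replicates were 11.6 to 45.1 times their degrees of freedom.

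The receptors and gene lists were chosen with earlier results of these data known. Named genes were all receptors, the called genes, the 2 of highest level per length and the 2 of lowest p of each list, the retinoid X receptors, the 3 profiles nearest to Esr1, and Idh1. Stra6, Aldh1a2, Aldh1a3, Rdh10, Cyp26a1, Cyp26b1, Mt1, Tsc22d3, Hsd11b2, Greb1, Cyp24a1, Dio2, Dio3, the marker genes, the genes in the closing observations and the motifs searched were chosen after values were seen. Of the 132 companion genes 131 were in the tables. Figures were drawn with matplotlib 3.10.9. Values of a few listed genes were left out of the text.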

Additional observations from a re-analysis of the deposited data

How the results depend on the processing

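Esr1 kept its direction in all alternatives and passed the threshold in 6 of 8 settings with all libraries, with log2 fold changes of 1.34 to 1.37. It did not pass in edgeR with a replicate block (adjusted p = 0.0854) or with the Y-linked covariate (0.0616). The number of receptors called was 0 in those 2 settings and 2 without the low-count filter, where Vdr was added, and 0 to 1 with 1 library left out. Companion genes called numbered 7 in DESeq2, 4 in DESeq2 with a replicate block, 8 without the filter and 0 to 2 with 1 library left out. Over all genes, 194 were called in DESeq2, 89 in DESeq2 with a replicate block, 3 in edgeR with a replicate block, 19 in limma-voom, 259 without the filter, 6 with the Y-linked covariate, and 3 to 17 with 1 library left out. Equal replicate numbers showed no sign of pairing (correlations of same-numbered deviations -0.16, -0.00678 and -0.15, with 0 of 6 libraries closest to their own number). With so few libraries per group these correlations cannot exclude that equal numbers share a litter. The cause of the differences between settings was not tested.

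Signs that turned were those of small changes. Phb2 was at -0.000642 in DESeq2 and -0.00312 without the filter, and Rxrg at 0.055 with the Y-linked covariate. With 1 library left out, log2 fold changes that crossed 0 ranged from -0.038 to 0.29 for Rarb, -0.090 to 0.035 for Rarg, -0.10 to 0.053 for Igfbp3, -0.099 to 0.034 for Igf1, -0.038 to 0.12 for Hsp90ab1, -0.040 to 0.12 for Ctsd, -0.056 to 0.047 for Phb2, -0.028 to 0.13 for Igf2r, -0.12 to 0.014 for Rxra, -0.047 to 0.10 for Rxrb, -0.21 to 0.20 for Rxrg and -0.049 to 0.41 for Idh1. Groups of 3 and the low counts of Esr2 and Thrb limit what could be detected.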

Other observations

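Several hormone genes stayed below the low-count filter. Hsd17b1, which converts estrone to estradiol, was covered by 7, 6 and 7 counts among controls and by 8, 27 and 23 among mutants. All 3 mutants lay above all controls, and in edgeR without the filter the log2 fold change was 1.66 with an adjusted p of 0.175. Gc, the vitamin D carrier of plasma, gave 2, 2 and 11 counts in controls and 0 in each mutant. Cyp19a1, the aromatase that makes estrogen, gave 1 count in control 3 and 0 in the other libraries. Fshr, Sult1e1 and Stra8 had 0 counts in all 6 libraries. Pgr, the progesterone receptor and an estrogen target in other tissues, gave 5, 1 and 3 counts among controls and 0, 1 and 3 among mutants.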
